A study of Bos taurus with 15 samples.

Results

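The HOX genes are 38 of the 32671 gene entries of a count table from bovine endometrium, the lining of the uterus. They were taken as every entry named HOXA, HOXB, HOXC or HOXD with a paralog number, which gave 11 HOXA, 9 HOXB, 9 HOXC and 9 HOXD genes. Of the 39 HOX genes in the RefSeq annotation of the assembly ARS-UCD2.0, used for names alone, HOXB5 has no entry here and was not analysed. All samples were endometrial biopsies of heifers on day 14 of pregnancy, in 3 fertility classes of 5 heifers each, Infertile, Sub-fertile and High-fertile, and each library came from 1 heifer. Every heifer, High-fertile ones included, had its estrus synchronised with prostaglandin, GnRH, progesterone and estradiol and received an in vivo-produced embryo on day 7. Flushing of the uterus came first and forceps then took the biopsy. The sources used here do not give strain, age, the way heifers were put into classes, or what was recovered by flushing.

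HOX genes encode homeodomain transcription factors that lie in 4 clusters, and their order within a cluster follows their order of use along the body axis. In the mouse, the genes at the 5′ end of the HOXA cluster pattern the Müllerian duct, with Hoxa9 in the future oviduct, Hoxa10 in the uterus, Hoxa11 in the uterus and cervix and Hoxa13 in the upper vagina. Mice without Hoxa10 or Hoxa11 are born but fail at implantation, and in women HOXA10 is induced by estradiol and progesterone. HOX proteins bind DNA together with PBX and MEIS proteins, Polycomb proteins keep silent parts of the clusters closed, and retinoic acid activates them in the embryo.

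Total counts were 40061511 to 51009815 in Infertile, 38017136 to 62858724 in Sub-fertile and 40542008 to 56164970 in High-fertile libraries, of which HOX genes took 0.0583% to 0.0962%. The labels give no batch. Clustering of 437 pseudogene and ribosomal RNA entries, without use of the class, split the libraries into a set A of 8 (Infertile 1 and 4, Sub-fertile 3 and 4, High-fertile 2 to 5), a set B of 5 (Infertile 3 and 5, Sub-fertile 1, 2 and 5) and a set C of 2 (Infertile 2 and High-fertile 1). Set B holds no High-fertile library, so that set and class are partly confounded. All 10 markers of stroma and all 10 of epithelium were counted. The summed stroma markers lay at 9982 to 39040 CPM (counts scaled to library size) in Infertile, 12280 to 29760 in Sub-fertile and 15130 to 25700 in High-fertile libraries, and the summed epithelium markers at 1009 to 1748 CPM in Infertile, 646 to 1632 in Sub-fertile and 969.5 to 1353 in High-fertile libraries. Summed smooth muscle markers were the most variable of the 3 lists, at 1088 to 27150 CPM in Infertile, 1219 to 7012 in Sub-fertile and 1471 to 13340 in High-fertile libraries. In bulk tissue, fewer cells of a type and less RNA per cell cannot be told apart.

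The endometrium used the HOXA, HOXB and HOXD clusters at substantial levels and the HOXC cluster hardly at all. Levels between genes are compared as deposited FPKM (fragments scaled to gene length and library size), averaged over the 15 libraries with the SD between heifers, and no test was made of them. HOXA10 was the highest at 57.5 ± 19.4 FPKM and HOXA11 next at 50.9 ± 16.6 FPKM, so that both genes known for implantation in the mouse led the list. The HOXB genes HOXB6 (35.5 ± 9.30 FPKM), HOXB7 (31.5 ± 7.19 FPKM) and HOXB8 (25.7 ± 7.83 FPKM) followed, and with HOXA10 and HOXA11 they made up 56.2% of the summed HOX FPKM. This order depends on the gene length behind each FPKM value, which counts and FPKM put at 680 bp for HOXB7 and 5260 bp for HOXA5. In mean CPM, which leaves length out, HOXA11 (135) was above HOXA10 (103). HOXA5 (69.5) and HOXA9 (57.8) were above HOXB6 (43.7), HOXB7 (21.4) and HOXB8 (18.0). In all, 12 members averaged 10 FPKM or more, 11 lay from 1 to under 10, 10 from 0.1 to under 1 and 5 under 0.1.

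The clusters differed in the paralogs they used. HOXA summed to 164 ± 39.1 FPKM over its genes, 45.3% of the HOX total on average, HOXB to 130 ± 29.9 FPKM (36.9%), HOXD to 61.5 ± 20.2 FPKM (17.0%) and HOXC to 2.63 ± 0.770 FPKM (0.740%). Within HOXA the mean was higher at each gene from HOXA2 (2.48 ± 0.922 FPKM) to HOXA5 (13.2 ± 3.01 FPKM) and again from HOXA6 (4.44 ± 1.39 FPKM) to HOXA10, although HOXA3 and HOXA4, and HOXA6 and HOXA7, differed by less than 1 SD. HOXA13 lay at 0.596 ± 0.283 FPKM. HOXA11 was above HOXA13, the gene of the most caudal duct in the mouse, in 15 of 15 libraries, by a median of 96.5-fold (51.4-fold to 171-fold). In HOXD the same edge lay between HOXD11 (8.32 ± 3.35 FPKM) and HOXD12 (0.266 ± 0.142 FPKM), and in HOXB it lay past HOXB9 (5.54 ± 1.30 FPKM), with HOXB13 at 3 counts in all 15 libraries together.

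**Figure D1:**
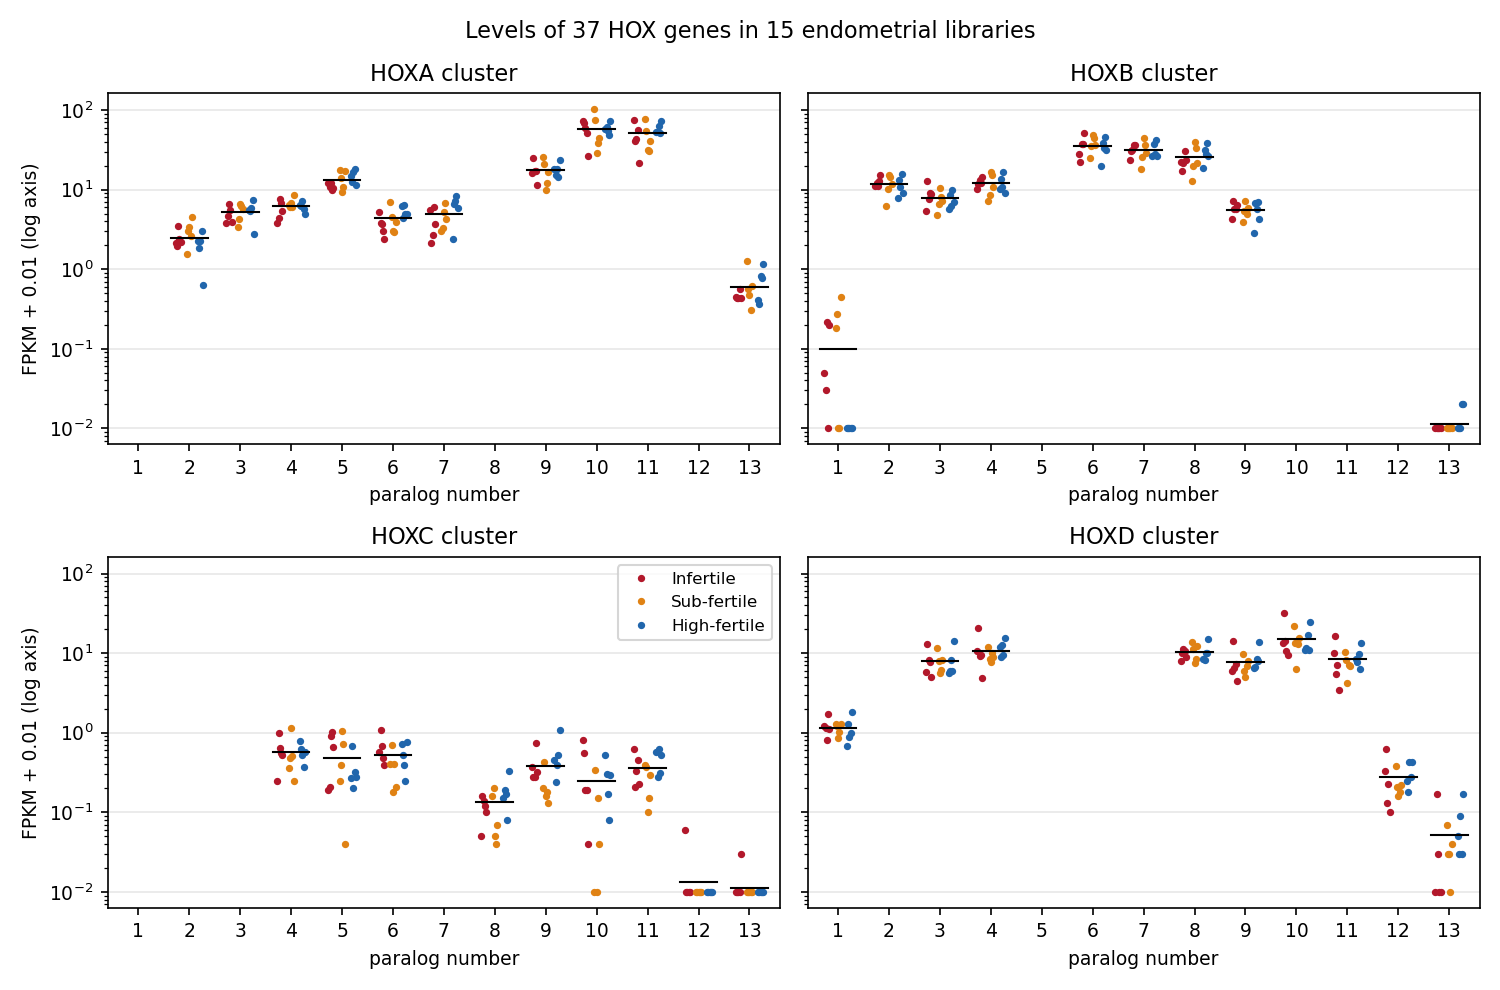
Level of 37 of the 38 HOX genes by cluster and paralog number. Each dot is 1 heifer, coloured by class, black lines are means over 15 libraries, and the vertical axis is FPKM + 0.01 on a log scale. HOXA10 and HOXA11 are highest, all HOXC genes average under 1 FPKM, and paralogs 12 and 13 are low in every cluster that has them.

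By paralog number, the members numbered 10 (HOXA10, HOXC10 and HOXD10) held 20.3% of the summed FPKM and those numbered 11 held 16.6%. Members numbered 12 and 13 held 0.0753% and 0.179%. HOXA10 exceeded its paralog HOXD10 in 15 of 15 libraries, by a median of 4.39-fold (2.14-fold to 5.75-fold). In the order of mean FPKM, 34 of 37 neighbouring pairs differed by less than 1 SD between heifers. HOXA10, for one, was above HOXA11 in 10 of 15 libraries. The 3 steps wider than 1 SD lay between HOXB8 and HOXA9, between HOXA6 and HOXA2, and between HOXA2 and HOXD1. In the ARS-UCD2.0 annotation, 14 HOX genes overlap another HOX gene (HOXA3 to HOXA6, HOXB3 to HOXB6, HOXB8 with HOXB9, HOXD3 with HOXD4 and HOXD10 with HOXD11), so that their reads may have been split or left out and their levels are uncertain.

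Between the fertility classes, no HOX gene passed the threshold. The question was whether HOX levels in endometrium differ between fertility classes, and the test was edgeR's quasi-likelihood test on the counts with Benjamini-Hochberg adjustment over 19962 genes. Of the 38 members, 33 passed the filter on low counts, and 0 of these 33 had an adjusted p under 0.05 in any comparison, against 0% of all genes tested. At an unadjusted p under 0.05, 2 of 33 members were called in Infertile against High-fertile heifers where 11.0% of all genes were, 1 in Sub-fertile against High-fertile heifers where 13.7% were, and 0 in Infertile against Sub-fertile heifers where 2.63% were. For no member did the ranges of 2 classes fail to overlap, while 2.22%, 5.07% and 0.205% of all genes had separate ranges in these 3 comparisons.

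HOXA10, whose loss in the mouse stops implantation, had 72.0, 68.0, 59.0, 51.8 and 26.3 FPKM in the Infertile heifers, 102, 76.0, 29.2, 38.4 and 45.0 FPKM in the Sub-fertile heifers and 58.3, 61.1, 54.6, 48.4 and 72.9 FPKM in the High-fertile heifers. The class means lay close together and the High-fertile heifers were the least spread, with an SD of 9.07 FPKM against 18.1 in Infertile and 30.1 in Sub-fertile heifers. Spread was not tested, and all High-fertile libraries but that of heifer 1 are in set A. The order was not general: for HOXC9 the High-fertile SD was the largest, at 0.317 FPKM against 0.199 in Infertile and 0.120 in Sub-fertile heifers. The log2 fold change of HOXA10 was -0.09 ± 0.316 (SE; 95% interval -0.76 to 0.59) in Infertile against High-fertile and -0.04 ± 0.316 (-0.71 to 0.64) in Sub-fertile against High-fertile heifers, with adjusted p of 0.925 and 0.961. Both directions turned under other settings, for example to 0.14 without Sub-fertile heifer 3 and to 0.09 without Infertile heifer 5.

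HOXA11, which acts beside HOXA10 in the mouse uterus, had 75.3, 40.5, 42.7, 55.4 and 21.6 FPKM in Infertile, 77.8, 54.9, 31.4, 30.5 and 41.0 FPKM in Sub-fertile and 52.4, 53.5, 62.1, 52.0 and 71.8 FPKM in High-fertile heifers. Of the 5 Infertile and the 5 Sub-fertile heifers, 3 in each class were below the lowest High-fertile heifer, but the highest single heifers were an Infertile and a Sub-fertile one. The log2 fold change was -0.30 ± 0.305 in Infertile and -0.32 ± 0.305 in Sub-fertile heifers against the High-fertile ones (adjusted p = 0.683 and 0.583). With 1 library left out they ran from -0.57 (without Infertile heifer 1) to -0.12 (without Infertile heifer 5) and from -0.58 (without Sub-fertile heifer 1) to -0.20 (without Sub-fertile heifer 3). These 2 comparisons share the High-fertile libraries.

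HOXA9 had 15.9, 24.7, 16.9, 17.2 and 11.4 FPKM in Infertile, 25.5, 21.0, 9.97, 12.2 and 16.4 FPKM in Sub-fertile and 18.3, 15.3, 18.2, 14.5 and 23.4 FPKM in High-fertile heifers, and the classes overlapped fully. HOXA13 had 0.44, 0.42, 0.43, 0.55 and 0.42 FPKM in Infertile, 1.24, 0.56, 0.47, 0.30 and 0.61 FPKM in Sub-fertile and 0.40, 0.36, 0.81, 0.77 and 1.16 FPKM in High-fertile heifers. The Infertile heifers lay in a narrow band at the lower end, with a log2 fold change of -0.63 ± 0.364 against High-fertile heifers (adjusted p = 0.504), or -0.38 without High-fertile heifer 5.

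HOXA5 and HOXA6, neighbours in the middle of the cluster whose annotated transcripts overlap, were the 2 members called at an unadjusted p in Infertile against High-fertile heifers. HOXA5 had 12.2, 10.9, 12.2, 9.92 and 10.3 FPKM in Infertile, 17.7, 13.8, 9.26, 10.9 and 17.1 FPKM in Sub-fertile and 14.7, 12.4, 16.8, 18.1 and 11.3 FPKM in High-fertile heifers. HOXA6 had 5.24, 3.83, 3.64, 3 and 2.42 FPKM in Infertile, 7.08, 4.57, 3.01, 2.91 and 3.93 FPKM in Sub-fertile and 6.22, 4.41, 6.45, 4.91 and 4.93 FPKM in High-fertile heifers. For HOXA5 all 5 Infertile heifers were below the second lowest High-fertile heifer, and for HOXA6 4 of 5 Infertile heifers were below the lowest High-fertile one. HOXA5 differed by -0.40 ± 0.186 log2 (adjusted p = 0.452) and HOXA6 by -0.56 ± 0.258 log2 (adjusted p = 0.450).

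**Figure D2:**
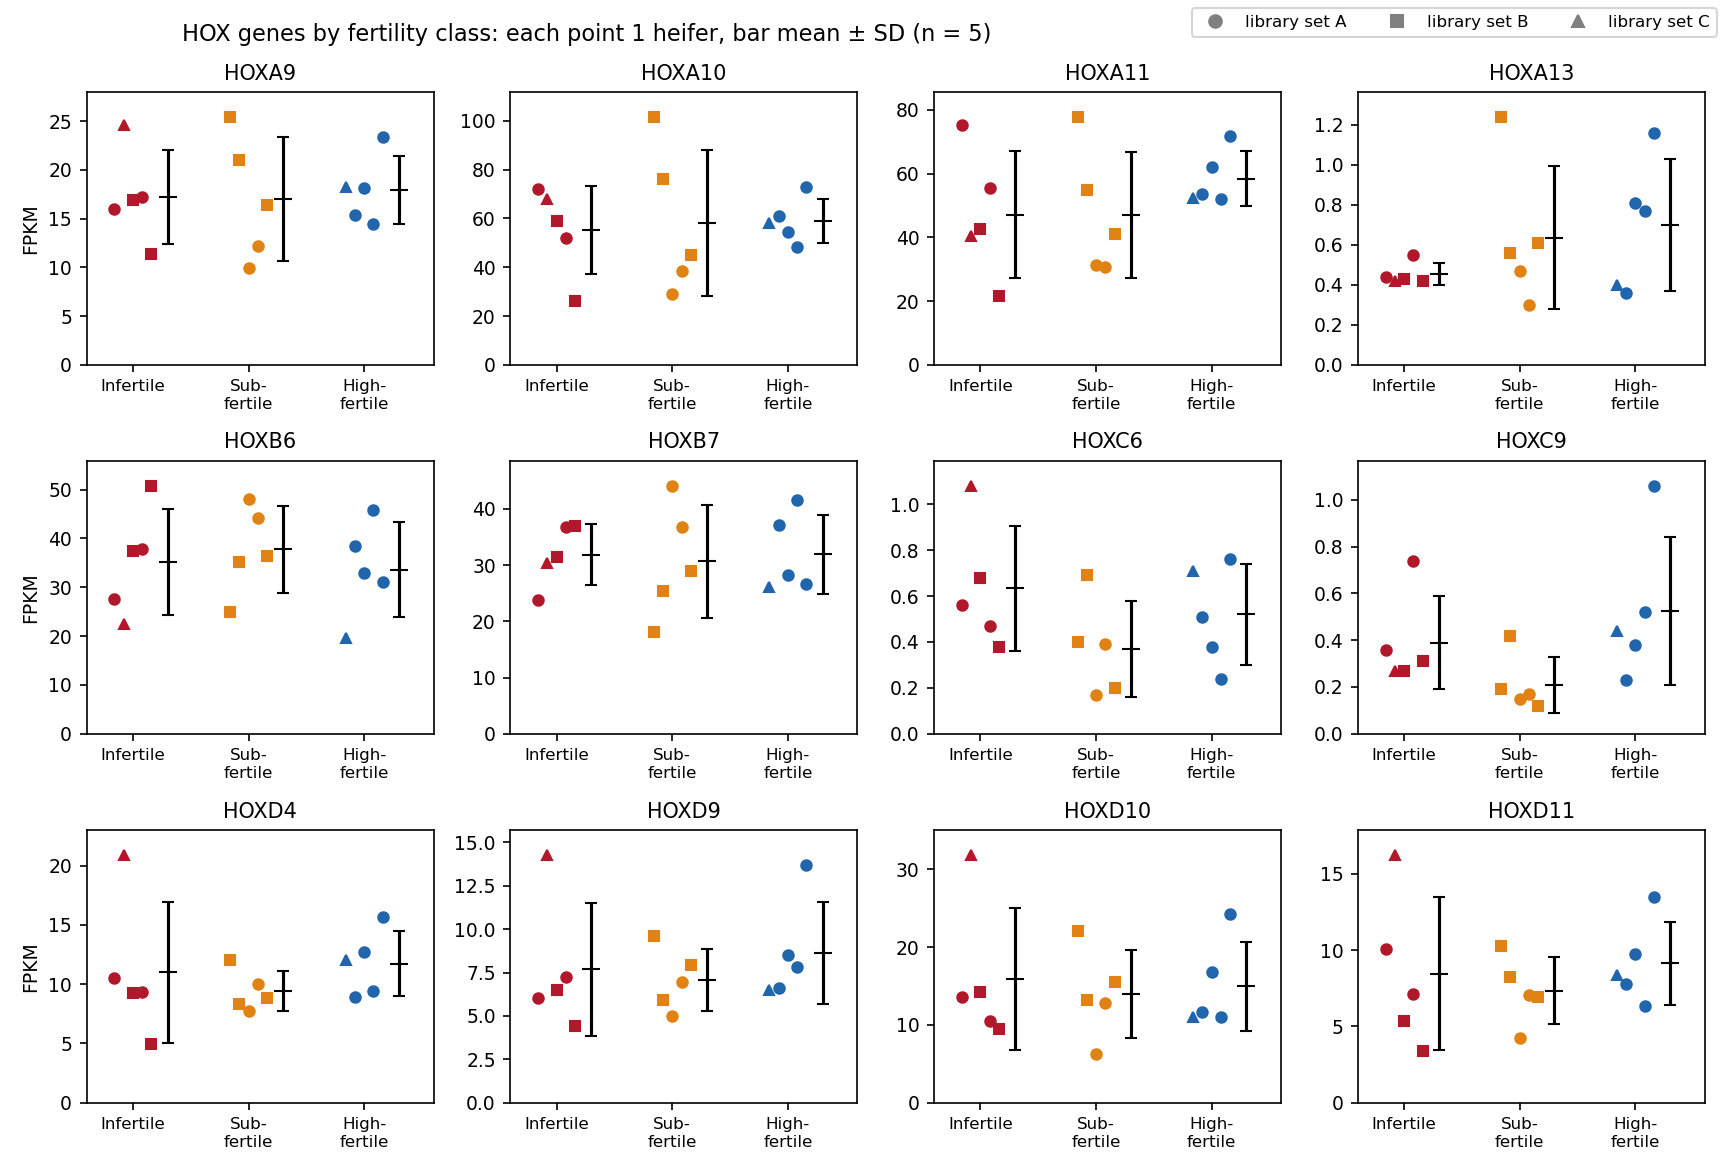
FPKM of 12 HOX genes in each heifer, Infertile, Sub-fertile and High-fertile from left to right. Symbols give the library set, and the black bar is the class mean ± SD (n = 5). The classes overlap in every panel, and the High-fertile heifers are the least spread for HOXA10 and HOXA11.

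HOXB6 and HOXB7, the highest genes of their cluster, did not separate the classes. HOXB6 had 27.6, 22.5, 37.4, 37.8 and 50.8 FPKM in Infertile, 24.9, 35.2, 48.1, 44.2 and 36.4 FPKM in Sub-fertile and 19.7, 38.4, 33.0, 45.8 and 31.2 FPKM in High-fertile heifers. HOXB7 had 23.8, 30.3, 31.5, 36.8 and 36.9 FPKM in Infertile, 18.1, 25.4, 44.1, 36.8 and 28.9 FPKM in Sub-fertile and 26.1, 37.1, 28.2, 41.5 and 26.6 FPKM in High-fertile heifers. For HOXB7 the class means differed by -0.005 ± 0.220 log2 in Infertile and -0.07 ± 0.220 log2 in Sub-fertile against High-fertile heifers, with 95% intervals of -0.47 to 0.46 and -0.54 to 0.40. Over the 7 tested HOXB genes the median log2 fold change was 0.07 in Infertile and -0.02 in Sub-fertile heifers against the High-fertile ones.

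The HOXC genes gave the largest fold changes, at very low levels. HOXC9, a thoracic patterning gene in the mouse axis, had 21, 14, 13, 42 and 14 counts in Infertile, 8, 20, 7, 12 and 6 counts in Sub-fertile and 20, 13, 24, 30 and 59 counts in High-fertile heifers. It was the 1 member called at an unadjusted p in Sub-fertile against High-fertile heifers, at -1.35 ± 0.472 log2 (adjusted p = 0.360), and also the 1 of 33 with an unadjusted p under 0.05 for any difference among the 3 classes, against 8.42% of all genes. Without High-fertile heifer 5 the log2 fold change was -0.93.

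HOXC11 had 99, 30, 44, 70 and 28 counts in Infertile, 46, 48, 12, 28 and 39 counts in Sub-fertile and 73, 43, 111, 48 and 79 counts in High-fertile heifers. HOXC8 had 4, 15, 12, 12 and 8 counts in Infertile, 12, 17, 4, 4 and 6 counts in Sub-fertile and 12, 20, 19, 8 and 34 counts in High-fertile heifers. Their log2 fold changes in Sub-fertile against High-fertile heifers were -0.88 ± 0.440 (adjusted p = 0.363) and -0.93 ± 0.528 (adjusted p = 0.384), and the classes overlapped in both. The HOXC8 value was -0.59 without High-fertile heifer 5. HOXC6 had 216, 377, 219, 177 and 116 counts in Infertile, 114, 221, 56, 183 and 68 counts in Sub-fertile and 218, 192, 162, 91 and 280 counts in High-fertile heifers. HOXC10 had 73, 45, 14, 16 and 2 counts in Infertile, 0, 25, 0, 16 and 2 counts in Sub-fertile and 37, 26, 16, 6 and 25 counts in High-fertile heifers. In Infertile against Sub-fertile heifers, HOXC9, HOXC6 and HOXC10 had the smallest p among the members, with log2 fold changes of 0.92 ± 0.473, 0.78 ± 0.412 and 1.81 ± 0.997 and an adjusted p of 0.998 each. Single libraries moved these values: HOXC9 was at 0.59 without Infertile heifer 4, HOXC6 at 0.51 without Infertile heifer 2, and HOXC10 at 1.17 without Infertile heifer 1 and 2.88 without Sub-fertile heifer 2.

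All 7 tested HOXC genes had a higher fitted level in Infertile than in Sub-fertile heifers (median log2 fold change 0.56), and 6 of 7 a lower one in Sub-fertile than in High-fertile heifers (median -0.88), comparisons that share the Sub-fertile libraries. Over all genes tested, 54.7% were higher in Infertile than in Sub-fertile heifers, and the medians were 0.03 and 0.01. HOXC4, the highest HOXC gene, differed little between class means: it had 0.24, 0.98, 0.63, 0.54 and 0.51 FPKM in Infertile, 0.35, 0.47, 1.14, 0.50 and 0.24 FPKM in Sub-fertile and 0.78, 0.62, 0.51, 0.36 and 0.56 FPKM in High-fertile heifers. All 10 smooth muscle markers likewise had a lower fitted level in Sub-fertile than in High-fertile heifers (median log2 fold change -0.93) and a higher one in Infertile than in Sub-fertile heifers (median 1.02), none with an unadjusted p under 0.05. Over the 15 libraries, 3 of the 7 tested HOXC genes had a positive and 4 a negative Pearson r with the mean of these markers (median -0.0598). HOXC10 alone was called (Pearson r = 0.695, permutation p = 0.00410, adjusted p = 0.0226, with Spearman rho = 0.656, permutation p = 0.00915). The r was 0.575 without the 2 heifers farthest from the median and 0.587 in set A, and the call was lost in set A, without Infertile heifer 1 and without Sub-fertile heifer 1. With the mean of the smooth muscle markers as a covariate in the edgeR fit, HOXC9 differed by -1.36 ± 0.470 log2 (adjusted p = 0.510) in Sub-fertile against High-fertile heifers and HOXC10 by 1.83 ± 0.823 log2 (adjusted p = 0.9996) in Infertile against Sub-fertile heifers.

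HOXD10 and HOXD4 were the highest HOXD genes and HOXD9 to HOXD11 are the HOXD members of the caudal paralog groups, which in the mouse pattern the limbs and the urogenital tract with their HOXA paralogs. HOXD10 had 13.6, 31.9, 14.2, 10.5 and 9.43 FPKM in Infertile, 22.1, 13.2, 6.26, 12.8 and 15.5 FPKM in Sub-fertile and 10.96, 11.7, 16.8, 11.03 and 24.3 FPKM in High-fertile heifers. HOXD4 had 10.5, 20.9, 9.23, 9.38 and 4.92 FPKM in Infertile, 12.1, 8.33, 7.78, 10.04 and 8.86 FPKM in Sub-fertile and 12.02, 8.90, 12.7, 9.39 and 15.7 FPKM in High-fertile heifers. Infertile heifer 2 and High-fertile heifer 5 were the top 2 of all 15 libraries for both genes. HOXD9 had 6.01, 14.3, 6.50, 7.24 and 4.42 FPKM in Infertile, 9.60, 5.94, 5.00, 6.94 and 7.94 FPKM in Sub-fertile and 6.47, 6.62, 8.50, 7.84 and 13.7 FPKM in High-fertile heifers. HOXD11 had 10.1, 16.3, 5.38, 7.14 and 3.41 FPKM in Infertile, 10.3, 8.22, 4.26, 7.07 and 6.94 FPKM in Sub-fertile and 8.39, 7.76, 9.77, 6.32 and 13.5 FPKM in High-fertile heifers. The same 2 heifers led here too, and the classes overlapped in all 4 genes, with log2 fold changes from -0.32 to 0.23 over the 3 comparisons.

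Over all 33 tested members, 13 had a higher and 20 a lower fitted level in Infertile than in High-fertile heifers (median log2 fold change -0.09; 53.5% of all genes higher, median 0.04). In Sub-fertile against High-fertile heifers 8 were higher and 25 lower (median -0.09; 51.0% of all genes higher, median 0.01), and in Infertile against Sub-fertile heifers 22 were higher and 11 lower (median 0.09). The standard errors ran from 0.186 to 0.997 log2 over the members and comparisons. Members that vary together across heifers are not separate observations in these splits.

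**Figure D3:**
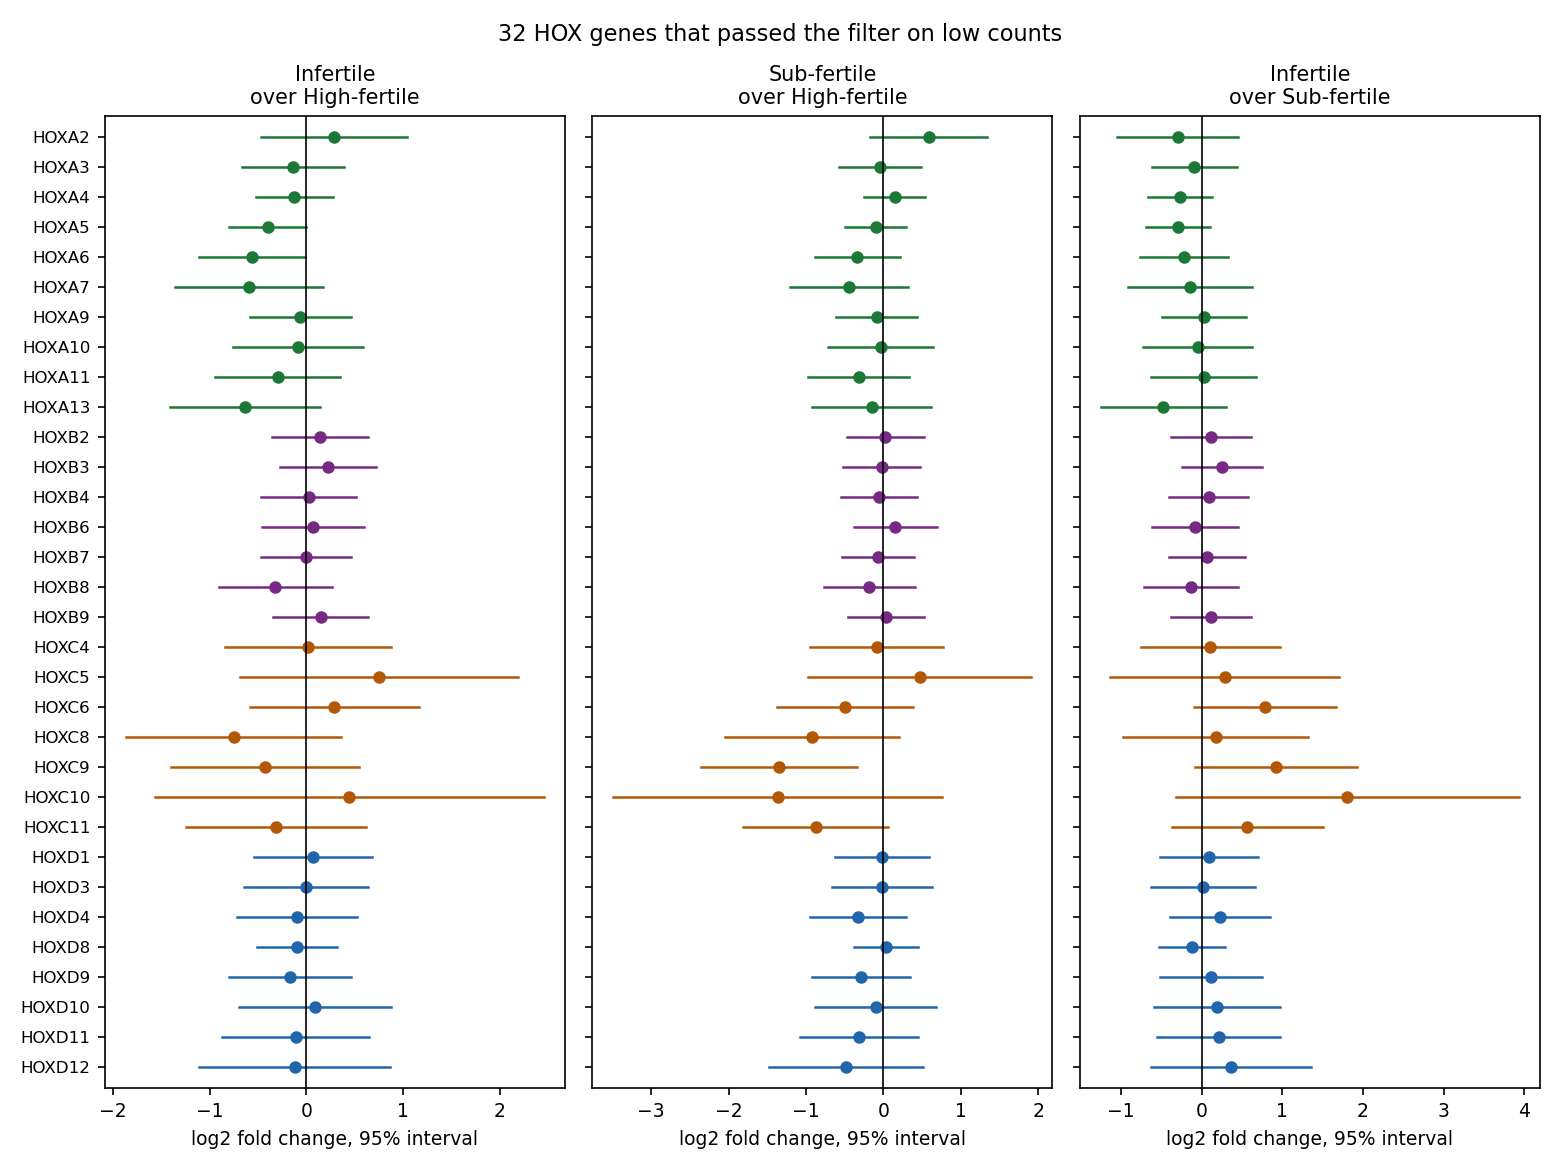
Log2 fold change (dot) and 95% interval (line) of 32 of the 33 tested HOX genes in 3 comparisons, ordered by cluster (colours) and paralog number. The widest intervals are those of HOXC5, HOXC8 and HOXC10, which have few counts, and the interval of HOXC9 in Sub-fertile over High-fertile heifers is the one farthest from 0.

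HOX genes were also tested against the library sets, and the classes were compared within set A. With class in the model, the edgeR quasi-likelihood test called 30.7% of all genes between set B and set A and 4.56% between set C and set A. Of the 33 members, HOXA7 (-0.83 ± 0.162 log2, adjusted p = 0.00186) and HOXB8 (-0.66 ± 0.187 log2, adjusted p = 0.018) were lower in set B, and HOXA7 was lower in set C (-1.49 ± 0.219 log2, adjusted p = 0.000733). HOXA10 (0.28 ± 0.380 log2, adjusted p = 0.629) and HOXA11 (-0.019 ± 0.374 log2, adjusted p = 0.980) were not called between set B and set A. Within set A alone, which has 2 Infertile, 2 Sub-fertile and 4 High-fertile libraries, 8 of 34 tested members had an unadjusted p under 0.05 in Sub-fertile against High-fertile heifers, all with a lower fitted level, where 7.43% of all genes did. These were HOXA6, HOXA9, HOXA10, HOXA11, HOXA13, HOXC8, HOXC9 and HOXC11. The compartment markers moved with them: the stroma means of the 2 Sub-fertile libraries in set A were 8.87 and 9.19 log2 CPM, against 9.36 to 9.996 in the 4 High-fertile ones, and their epithelium means were 6.93 and 6.66 log2 CPM, against 6.07 to 6.58. The part of these compartments in the set A values was not tested. In that fit HOXA10 differed by -0.82 ± 0.243 log2 and HOXA11 by -0.97 ± 0.199 log2, each with an adjusted p of 0.649. HOXA11 was also higher in the 2 Infertile than in the 2 Sub-fertile heifers of set A, by 1.12 ± 0.222 log2 (adjusted p = 0.894), 1 of 4 members with an unadjusted p under 0.05 there, where 4.71% of all genes had one. In Infertile against High-fertile heifers of set A it was 1 of 34 members, HOXD13, where 4.39% of all genes had one. HOXD13 was below the filter in the fit of all libraries. It entered the set A fit through its 12 and 20 counts in High-fertile heifers 3 and 5, and Infertile heifers 1 and 4 had 0. A member let in by the class where it is high gives no support for a class difference. Of the 3 Sub-fertile heifers in set B, heifer 1 had the highest HOXA10 and HOXA11 FPKM of all 15 libraries. By CPM its HOXA11 (205.5) was below that of Infertile heifer 1 (213.1).

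HOXB1, the most 3′ gene of the HOXB cluster and a hindbrain gene in the mouse embryo, was below the filter, and its few counts followed the sets. It had 2, 1, 8, 0 and 7 counts in Infertile, 6, 10, 0, 0 and 18 in Sub-fertile and 0 in each High-fertile library. Of its 52 counts, 49 were in set B, which gave 6 or more in each of its 5 libraries, against 2 counts in the 8 libraries of set A and 1 in the 2 of set C. A count of 0 in a library allows up to 3 counts, for counting error only. The 4 Infertile and Sub-fertile libraries of set A had 2, 0, 0 and 0 counts, against 8, 7, 6, 10 and 18 in the libraries of these classes in set B, so the counts differed by set within these classes. Set B has no High-fertile library. HOXD13, the HOXD paralog of HOXA13, had 0, 19, 2, 0 and 0 counts in Infertile, 6, 2, 2, 0 and 4 in Sub-fertile and 4, 2, 12, 2 and 20 in High-fertile libraries, and the 3 other members below the filter had 3 counts (HOXB13), 2 (HOXC12) and 2 (HOXC13) over all libraries.

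Differences between heifers were shared within the HOXB and the HOXD cluster. Across the 15 libraries, 93 of 528 pairs of HOX genes were correlated on log2 CPM past an adjusted p of 0.05 (permutation test, 100000 resamples), 65 positively and 28 negatively. Of the 528 pairs, 98 had an absolute r of at least 0.640, that of the weakest called pair, and 12.6% of all pairs of tested genes did. All 21 pairs of HOXB genes were positive, with a median r of 0.757 and 16 called, and so were all 28 pairs of HOXD genes, with a median r of 0.724 and 17 called. The HOXC genes were less alike, with 15 of 21 pairs positive, a median r of 0.272 and 1 called, and the HOXA genes had a median r of 0.0879 over 55 pairs, with 8 called positive and 2 negative. HOXB and HOXD genes ran against each other, with 52 of 56 pairs negative and a median r of -0.419, although 3 of the 56 were called. Clusters are described by medians, since neighbouring genes may share reads and are not independent.

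The HOXA cluster was divided. HOXA9 and HOXA10 had r = 0.894 (permutation p = 1e-05, the smallest possible, adjusted p = 0.000754) and rho = 0.832 (permutation p = 0.00026), and the r was 0.812 without the 2 heifers farthest from the median. HOXA10 and HOXA11 had r = 0.866 (permutation p = 7e-05, adjusted p = 0.00246) and rho = 0.754 (permutation p = 0.00164), and the r was 0.737 without 2 heifers and 0.939 in set A. HOXA9 to HOXA13 followed the HOXD genes, with 32 of 32 pairs positive, a median r of 0.588 and 13 called. They opposed the HOXB genes, with 28 of 28 pairs negative, a median r of -0.594 and 11 called. HOXA2 to HOXA4 had the reverse signs, with a median r of 0.348 to HOXB, -0.462 to HOXD and -0.447 to HOXA9 to HOXA13, although 1 of the 21 pairs with HOXB passed and 0 of the 24 and 0 of the 12 others did. This division of HOXA was made after the values had been seen and is a description. The highest HOXA and a leading HOXB gene, HOXA10 and HOXB7, ran against each other at r = -0.810 (permutation p = 0.00018, adjusted p = 0.00380) and rho = -0.821 (permutation p = 0.00033). For HOXA10 with HOXB7 the r was -0.807 without 2 heifers and -0.792 in set A.

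**Figure D4:**
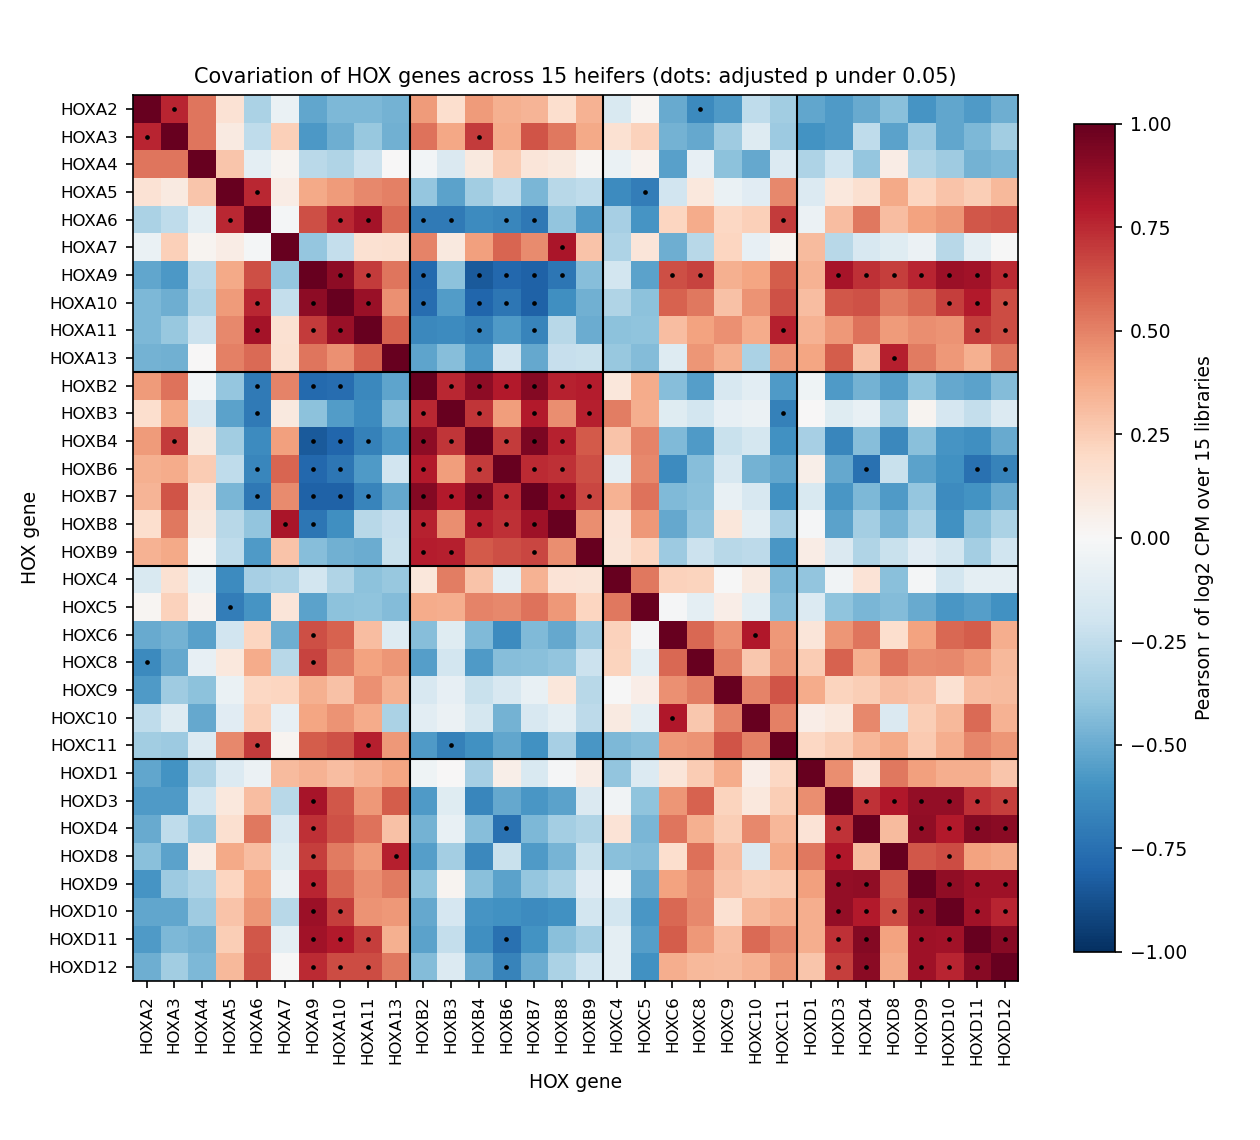
Pearson r of log2 CPM over 15 libraries for each pair of 32 HOX genes, ordered by cluster and paralog number, with lines between clusters. Dots mark the 81 of these pairs past an adjusted p of 0.05. HOXB and HOXD form positive blocks, HOXA9 to HOXA13 join HOXD, and most pairs of HOXA2 to HOXA4 with them are negative.

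The blocks were also seen with the class means or the set means removed. With class means removed, 132 pairs passed, and with set means removed 165. In set A alone, with 8 libraries, 39 passed, and the median r was 0.879 within HOXB, 0.784 within HOXD and -0.706 between them. Single pairs did depend on the sets. HOXA7 with HOXB8, the 2 genes that were lower in set B, had r = 0.819 over all libraries, 0.240 in set A and 0.341 with set means removed. Other pairs were stronger without the sets: HOXA11 with HOXB8 had r = -0.275 over all libraries, -0.803 in set A and -0.810 with set means removed.

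The blocks moved with markers of the tissue's main compartments. The mean log2 CPM of the 10 stroma markers was correlated with HOXD9 at r = 0.897 (permutation p = 1e-05, adjusted p = 0.00099) and rho = 0.832 (permutation p = 0.00026), and the r was 0.844 without the 2 heifers farthest from the median and 0.929 in set A. All 8 HOXD genes were positive to it, 7 of them called, as were HOXA9 (r = 0.865, permutation p = 7e-05, adjusted p = 0.00231), HOXA10 (r = 0.733, permutation p = 0.00209, adjusted p = 0.0138) and HOXA11 (r = 0.663, permutation p = 0.00677, adjusted p = 0.0291). HOXA10 was weaker by rank, at rho = 0.525 (permutation p = 0.0468), and its r was 0.607 without 2 heifers and 0.59 in set A. HOXA11 had rho = 0.546 (permutation p = 0.0370), and its r was 0.439 without 2 heifers and 0.6015 in set A. All 7 HOXB genes were negative to stroma, 3 of them called. The epithelium markers gave opposite signs, with all 8 HOXD genes negative but 1 called (median r = -0.350), and all 7 HOXB genes positive and 5 called, of which HOXB7 had r = 0.817 (permutation p = 0.00029, adjusted p = 0.00410) and rho = 0.754 (permutation p = 0.0017), while HOXA5, HOXA6, HOXA9, HOXA10, HOXA11 and HOXA13 were called negative.

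In all, 32 of the 99 pairs of a HOX gene and a marker list passed, 17 for stroma, 14 for epithelium and 1 for smooth muscle. Among all tested genes outside the list itself, 12.8%, 11.4% and 3.73% were correlated with the stroma, epithelium and smooth muscle means at least as strongly as the weakest called HOX gene. The HOX pairs with the markers rest partly on Sub-fertile heifer 1, whose mean of the epithelium markers, 5.20 log2 CPM, was the lowest of all (the other 14 libraries lay from 5.90 to 6.93) and whose stroma markers were the second highest. Without this library 7 pairs passed, all positive and all with stroma, and without Sub-fertile heifer 3, which had the highest epithelium mean, 17 passed. In set A alone 5 passed. HOXB7 and the epithelium markers had r = 0.592 without the 2 heifers farthest from the median, 0.762 in set A and 0.877 with set means removed. The means of the 2 lists were themselves opposed (r = -0.453).

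**Figure D5:**
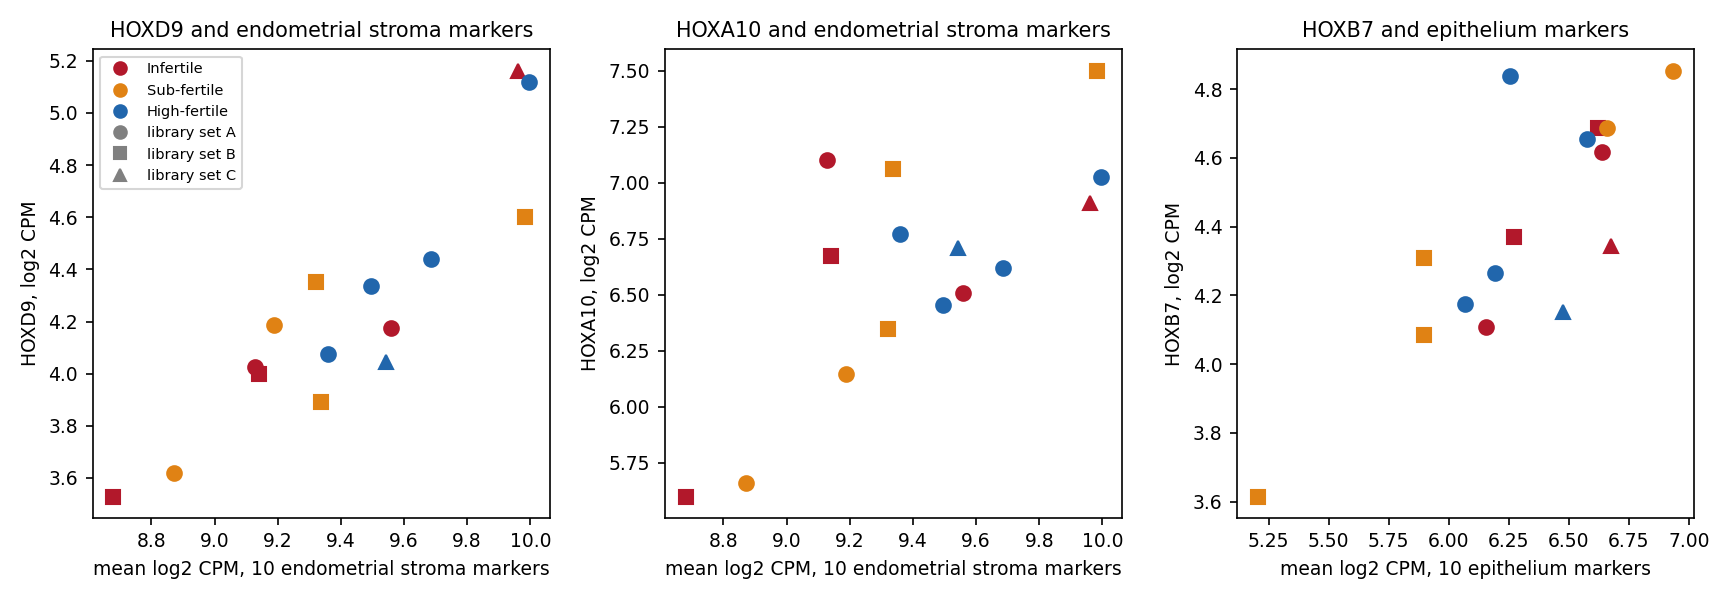
Log2 CPM of HOXD9 and HOXA10 against the mean log2 CPM of 10 stroma markers, and of HOXB7 against that of 10 epithelium markers. Each point is 1 heifer, with the class as colour and the library set as symbol. HOXD9 follows the stroma mean in all classes, and the lowest point of the HOXB7 panel is Sub-fertile heifer 1.

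After regression of each gene on the stroma and epithelium means, 11 of the 528 HOX pairs passed. The median r was then 0.624 within HOXB (21 of 21 pairs above 0), 0.368 within HOXD and 0.0442 between HOXB and HOXD. With both means as covariates in the edgeR quasi-likelihood fit, 0 members had an adjusted p under 0.05, and 4 (Infertile against High-fertile, 14.0% of all genes), 2 (Sub-fertile against High-fertile, 4.34%) and 1 (Infertile against Sub-fertile, 1.94%) had an unadjusted p under 0.05. Which cells of the biopsy hold each HOX transcript was not measured.

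Among 13694 genes with a symbol and a mean of at least 1 CPM, those most like HOXA10 over the 15 libraries were PGM5 (r = 0.962), PRICKLE2 (0.960), TSHZ3 (0.956), SCD5 (0.932) and TMEM136 (0.924). Those most like HOXA11 were FEZ1 (r = 0.951), ZFP36L1 (0.915), SORCS2 (0.888), FGF11 (0.886) and ENOX1 (0.886). These were chosen as the highest and carry no test.

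Genes that work with or on the HOX clusters also gave no call at an adjusted p of 0.05. Of 11 TALE cofactors, which bind DNA with HOX proteins, 6 had a higher and 5 a lower fitted level in Infertile than in High-fertile heifers, and 2 a higher and 9 a lower one in Sub-fertile than in High-fertile heifers. Of all genes, 53.5% and 51.0% were higher in these 2 comparisons. In each, 1 cofactor had an unadjusted p under 0.05 (PBX3 and MEIS3), where 11.0% and 13.7% of all genes did. PBX3 averaged 43.1 ± 11.2 CPM in Infertile heifers, 37.1 ± 6.20 CPM in Sub-fertile heifers and 31.0 ± 6.08 CPM in the High-fertile class (0.47 ± 0.193 log2 in Infertile against High-fertile heifers, adjusted p = 0.439). MEIS3 averaged 36.6 ± 21.0 CPM in Infertile heifers, 29.2 ± 6.33 CPM in Sub-fertile heifers and 51.2 ± 11.9 CPM in the High-fertile class (-0.81 ± 0.357 log2 in Sub-fertile against High-fertile heifers, adjusted p = 0.360). Of 19 Polycomb genes, 2 had an unadjusted p under 0.05 in Infertile against High-fertile heifers, both higher, where 11.0% of all genes did, and 7 in Sub-fertile against High-fertile heifers, 3 higher and 4 lower, where 13.7% did. SUZ12, a core subunit of the complex that methylates histone H3 at lysine 27, averaged 78.3 ± 16.6 CPM in Infertile, 74.3 ± 11.04 CPM in Sub-fertile heifers and 57.6 ± 3.24 CPM in the High-fertile class (0.44 ± 0.142 and 0.37 ± 0.142 log2 against the High-fertile ones, adjusted p = 0.435 and 0.360).

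Of 12 tested activators of HOX clusters, 2 had an unadjusted p under 0.05 in Infertile against High-fertile heifers, 1 higher and 1 lower. There were 3 in Sub-fertile against High-fertile and 1 in Infertile against Sub-fertile heifers, beside 11.0%, 13.7% and 2.63% of all genes in these 3 comparisons. KMT2B, a histone H3 lysine 4 methyltransferase, averaged 70.1 ± 19.9 CPM in Infertile and 98.7 ± 3.98 CPM in High-fertile heifers (adjusted p = 0.448). DPY30 went the other way, at 42.0 ± 8.90 CPM in Infertile and 33.7 ± 0.74 CPM in High-fertile heifers (adjusted p = 0.450). In retinoic acid signalling, 11 of 16 tested genes had a lower fitted level in Infertile and 12 of 16 in Sub-fertile than in High-fertile heifers, with 2 at an unadjusted p under 0.05 in each, close to the shares of all genes (11.0% and 13.7%). The receptor RXRA averaged 68.8 ± 21.7 CPM in Infertile, 69.6 ± 17.5 CPM in Sub-fertile heifers and 98.8 ± 14.8 CPM in the High-fertile class (adjusted p = 0.439 and 0.360, edgeR). Of 8 tested genes known as HOXA10 or HOXA11 targets in the uterus of other species, 0 had an unadjusted p under 0.05 in any comparison. EMX2, which HOXA10 represses in human endometrium, averaged 110 ± 7.87 CPM in Infertile, 104 ± 16.5 CPM in Sub-fertile heifers and 107 ± 8.60 CPM in the High-fertile class.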

How the data were processed

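Polyadenylated RNA of 15 endometrial biopsies was sequenced from stranded TruSeq libraries, per the labels' protocols. The deposited table gives a read count and an FPKM value per gene and heifer. Per the submitters' processing notes, FastQC, Subread, featureCounts, edgeR and the build UMD3.1 were used. The sources used here do not give versions, strand setting or the handling of multi-mapped reads. The deposited FPKM values scaled with the library totals to within 0.381%. Counts were tested in R 4.3.3 with edgeR 4.0.16 (filterByExpr by class, TMM, robust quasi-likelihood, a mean per class, 12 residual degrees of freedom), two-sided, with Benjamini-Hochberg adjustment over 19962 genes and a threshold of 0.05. Correlations were taken on log2 CPM (prior count 2) by two-sided permutation tests of 100000 resamples, adjusted over 528 pairs of HOX genes and over 99 pairs of a HOX gene and a marker list. Fold changes and correlations were recovered from simulated data with the same code. The simulated fold changes were larger than those of HOX genes in the main fit, and none was in genes at the lowest levels. Recovery of small changes, or of changes in the lowest HOXC genes, was thus not tested. Full values were given for the 2 highest genes of each cluster, for paralogs 9, 10, 11 and 13 of HOXA and HOXD, and in each comparison for the 3 members with the lowest p, none having passed. Values of 1 member are not reported here, though it enters sums and counts over all members. The members and lists were chosen with earlier results of these data known. Alternatives were other scalings and filters, DESeq2 1.42.0, limma-voom (limma 3.58.1) without and with quality weights, the likelihood ratio test, subsets of libraries, covariates, each library left out and a threshold of 0.1. Libraries came from separate heifers, so the spread is between animals.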

Additional observations from a re-analysis of the deposited data

Results flagged for a closer look

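Among 54 groups of 5 heifers (18 HOX genes in 3 classes), 7 held a heifer whose gap to the nearest other exceeded Dixon's 95% limit for 5 values, where chance gives about 1 in 20. Infertile heifer 2 stood above its class for HOXD9, at 14.3 FPKM (the others 4.42 to 7.24), and for HOXD10, at 31.9 FPKM (9.43 to 14.2). High-fertile heifer 5 stood above its class for HOXD9, at 13.7 FPKM (6.47 to 8.50). Both heifers were among the 3 with the highest mean of the stroma markers, and the part of stroma in their values was not tested for a single heifer. Infertile heifer 4 stood above its class for HOXC9, at 0.74 FPKM (0.27 to 0.36), and for HOXA13, at 0.55 FPKM (0.42 to 0.44). Sub-fertile heifer 2 stood above its class for HOXC9, at 0.42 FPKM (0.12 to 0.19), and Sub-fertile heifer 3 for HOXC4, at 1.14 FPKM (0.24 to 0.50).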

How the results depend on the processing

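No HOX gene had an adjusted p under 0.05 in any of the 3 comparisons under any of 26 alternatives each, DESeq2, limma-voom and the likelihood ratio test included, while all genes past it numbered up to 34 with DESeq2 (Infertile against High-fertile) and 7162 with limma-voom and quality weights (Sub-fertile against High-fertile). At an unadjusted p the number of HOX genes ran from 0 to 4, 0 to 8 and 0 to 4 in Infertile against High-fertile, Sub-fertile against High-fertile and Infertile against Sub-fertile heifers. Of 321 alternative fold changes of 13 gene results, 310 kept their direction. The other 11 were of HOXA10 and HOXA11. HOXA10 in Sub-fertile against High-fertile heifers was 0.017 with upper quartile scaling, 0.093 with quality weights, 0.017 with the smooth muscle mean as a covariate, and -0.33 to 0.14 with a library left out. HOXA10 in Infertile against High-fertile heifers was 0.093 in set A alone, 0.16 with the epithelium and stroma means as covariates, and -0.23 to 0.086 with a library left out. HOXA11 in Infertile against High-fertile heifers was 0.15 in set A alone. The cause was not tested.

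The 93 HOX pairs numbered 39 in set A alone, 165 with set means removed, 11 with the epithelium and stroma means removed, and 60 to 124 with a library left out, the lowest without Sub-fertile heifer 3. The 32 pairs with marker lists numbered 5 in set A and 7 to 32 with a library left out, the lowest without Sub-fertile heifer 1. Set A has 8 libraries, which leaves less power. The fits with both compartment means, and every alternative for the marker lists, were chosen after seeing the data. No paired analysis was possible because each library came from a separate heifer that belongs to 1 class. The labels give no replicate numbers, so the heifer numbers used here only name libraries within a class. Counts of 0 to 73 in a library limit HOXC5, HOXC8, HOXC9, HOXC10 and the members below the filter.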

Other observations

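Of the 4 annotated non-coding genes within the HOXC cluster that have an entry here, 1 was above the coding genes of the cluster. LOC101907241, a long non-coding RNA placed between HOXC11 and HOXC12 in ARS-UCD2.0, averaged 3.60 FPKM over 15 libraries, where the highest HOXC coding gene averaged 0.562 FPKM, and was above every HOXC gene in 15 of 15 libraries and above their sum in 9 of 15. The others were LOC101907194, at 0.115 FPKM on average, and MIR615 and MIR196A-2, at 0 counts in all libraries. LOC101907241 had 3.38, 1.74, 2.07, 3.48 and 2.39 FPKM in Infertile, 6.16, 4.53, 1.95, 1.29 and 3.86 FPKM in Sub-fertile and 4.27, 2.54, 6.65, 3.62 and 6.12 FPKM in High-fertile heifers. Its log2 fold change in Infertile against High-fertile heifers was -0.82 (adjusted p = 0.456, edgeR). LOC104972110, between HOXA13 and HOXA11, averaged 2.40 ± 1.32 FPKM in Infertile, 2.21 ± 0.713 FPKM in Sub-fertile and 3.50 ± 0.783 FPKM in High-fertile heifers (SD, n = 5 each). The sources used here give no strand setting for the counting, so reads of an entry that overlaps a HOX gene cannot be told apart from those of that gene.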
